A study of Mus musculus with 384 samples.

Results

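CpG-poor accessible promoters are stretches of open chromatin at the starts of protein-coding genes in which the dinucleotide CpG is rare. In the pooled window list of the PyMT breast tumor, 1842 of 50000 windows met this description (3.68%). They were 15.7% (95% interval 15.0 to 16.3%) of the 11752 windows at protein-coding starts, and the other 9910 promoter windows were CpG-rich. A window of 500 bp belonged to the set when its centre lay within 1 kb of a protein-coding transcript start in GENCODE vM1 (mouse build mm9) and its CpG observed/expected ratio was below 0.4. The ratio is the number of CpG dinucleotides times the window length, divided by the product of its C and G counts. By this ratio 35550 of all 50000 windows (71.1%) were CpG-poor, most of them away from protein-coding starts. All intervals given are exact binomial or, for differences, Newcombe intervals at 95% and cover counting error only.

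The windows come from Pi-ATAC, in which a transposase tags the open chromatin of each sorted cell while its antibody signal is kept. Cells of a mammary tumor of an MMTV-PyMT mouse, in which a mammary promoter drives the polyoma middle T antigen and which was killed at 3 months of age, were stained for EpCAM, a surface protein of epithelial cells, and CD45, a surface protein of leukocytes. They fill 4 plates of 96 wells, and all wells form 1 group with the same genotype, tissue and stains. The paper reports that CD45+ cells were a small share of the stained tumor cells. Among the sorted cells that passed its filter they outnumbered EpCAM+ cells, so the wells do not mirror the cell mix of the tumor. The list pools all wells and carries no score and no stain, so a window cannot be assigned to tumor or immune cells, fewer cells with a window cannot be told apart from weaker opening, and without replicates there is no test.

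Most mammalian promoters lie in CpG islands, stretches where CpG has escaped loss because the DNA is unmethylated. Many of these serve genes used in nearly every cell. Promoters outside islands are typical of genes used by a lineage or after a stimulus. They depend more on tissue-specific factors bound near the start, and some carry a TATA box, the element that positions the transcription machinery a short way upstream of the start.

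The sequences show the contrast. Runx1, which encodes a transcription factor of blood cells, is transcribed from a CpG-poor and from a CpG-rich start, and both had a window. The stretches below run from 200 bases upstream to 30 bases downstream of the start, 5′ to 3′ on the strand of the gene, with every CpG in capitals. The CpG-poor stretch of Runx1 held 2 CpG and the CpG-rich stretch 25.
Runx1, chr16:92826226-92826456 (- strand), CpG-poor start: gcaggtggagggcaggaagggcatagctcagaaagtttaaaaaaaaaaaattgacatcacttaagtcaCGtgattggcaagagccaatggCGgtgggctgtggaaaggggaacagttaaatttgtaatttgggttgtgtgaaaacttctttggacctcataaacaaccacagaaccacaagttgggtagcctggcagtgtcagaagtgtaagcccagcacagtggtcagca
Runx1, chr16:92697543-92697773 (- strand), CpG-rich start: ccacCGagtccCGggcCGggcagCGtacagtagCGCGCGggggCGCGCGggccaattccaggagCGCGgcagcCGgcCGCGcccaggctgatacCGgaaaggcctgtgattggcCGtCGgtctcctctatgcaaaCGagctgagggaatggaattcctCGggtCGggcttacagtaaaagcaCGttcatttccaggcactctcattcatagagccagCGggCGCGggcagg

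For immune, epithelial and other genes in turn, the next stretches belong to a listed gene whose window was centred nearest to a CpG-poor start. Among immune genes Ptpn6 and Sash3 tied at 0 bp, and Ptpn6 is shown. Ptpn6 encodes the phosphatase SHP-1 of blood cells and its window was centred on the start. The window (chr6:124688482-124688981) held 16 CpG and its centre fell in an exon outside the coding sequence. Cldn4 encodes a tight-junction claudin of epithelia, and its window (chr5:135422537-135423036) held 15 CpG and was centred 17 bp downstream, also in an exon outside the coding sequence. Gria1 encodes a subunit of the AMPA glutamate receptor of neurons, and its window (chr11:56826315-56826814) held 4 CpG and was centred 17 bp downstream. The first and second stretches held 6 CpG each and that of Gria1 held 0, with a long CA repeat.
Ptpn6, chr6:124688702-124688932 (- strand): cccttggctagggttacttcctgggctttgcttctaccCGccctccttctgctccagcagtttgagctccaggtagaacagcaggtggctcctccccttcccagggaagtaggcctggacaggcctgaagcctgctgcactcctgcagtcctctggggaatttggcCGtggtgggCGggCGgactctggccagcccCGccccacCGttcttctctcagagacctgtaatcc
Cldn4, chr5:135422774-135423004 (- strand): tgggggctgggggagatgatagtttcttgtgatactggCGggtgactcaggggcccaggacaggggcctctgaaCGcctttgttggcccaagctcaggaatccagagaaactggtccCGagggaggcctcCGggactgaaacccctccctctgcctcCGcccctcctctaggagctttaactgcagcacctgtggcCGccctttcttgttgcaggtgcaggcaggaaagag
Gria1, chr11:56826348-56826578 (+ strand): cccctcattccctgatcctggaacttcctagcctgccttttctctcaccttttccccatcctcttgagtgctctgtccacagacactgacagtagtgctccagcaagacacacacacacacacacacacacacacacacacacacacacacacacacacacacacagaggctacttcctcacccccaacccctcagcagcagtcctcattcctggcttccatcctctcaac

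The CpG content of the windows followed from the rule. The median window held 8 CpG, a ratio of 0.25 and 51.4% GC, against 36 CpG, 0.775 and 62% GC in CpG-rich promoter windows. The ratio had no gap at the threshold. The last windows inside it belonged to Tex264, Lhfp, Rassf5, Fam164c and Tlr6, with ratios from 0.39968 to 0.399936. Those just outside belonged to Fmn1, Dst, Nme2, Cebpg and Hs6st2, with ratios from 0.40016 to 0.400875. At the other end, 14 windows held 0 CpG. Among listed genes these were windows of H2-Eb1, a chain of MHC class II that presents antigen, and of Gbp3, an interferon-induced guanylate-binding protein. The sequence of H2-Eb1 from 150 bases upstream to 10 bases downstream of the start is shown with the CCAAT word (either strand) in capitals, which occurred at 2 places.
H2-Eb1, chr17:34442678-34442838 (+ strand): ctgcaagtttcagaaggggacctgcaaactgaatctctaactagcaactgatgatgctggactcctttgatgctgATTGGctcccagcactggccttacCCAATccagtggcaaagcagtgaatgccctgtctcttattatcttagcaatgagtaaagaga

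A CpG-poor window was not always at a CpG-poor promoter. When the 500 bp centred on the nearest start were scored in the same way, 1150 of the 1842 windows (62.4%, 60.2 to 64.6%) had a CpG-poor start. The other 692 (37.6%) lay beside a CpG-rich start, and for 407 of them (58.8%) a CpG-rich window was also present within 1 kb of that start. Of the 1150 windows at CpG-poor starts, 84 (7.30%) had such a neighbour. The label of a CpG-poor promoter was met by the start itself in 1150 windows, and the 692 others are called windows beside a CpG-rich start.

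**Figure D1:**
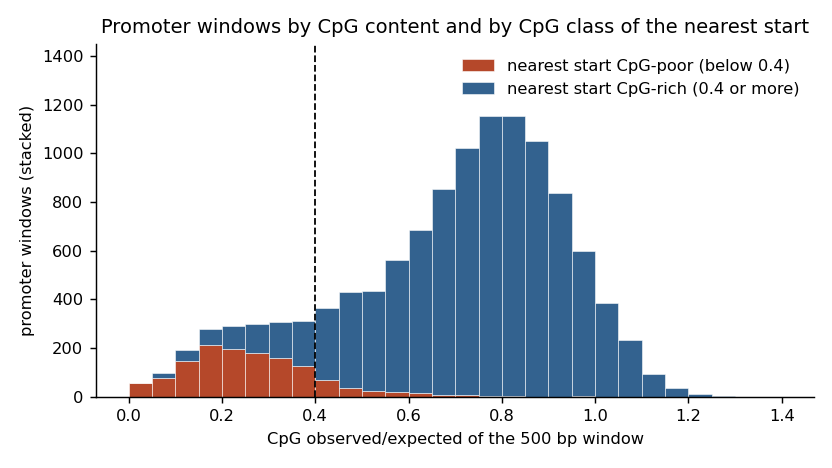
Number of promoter windows (y axis, stacked) by CpG observed/expected ratio of the window (x axis, bins of 0.05, dashed line at the threshold of 0.4), colored by the class of the nearest start. Left of the line stand 1842 windows, 1150 of them nearest to a CpG-poor start.

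Windows beside CpG-rich starts included those of B2m, the light chain of MHC class I, Icam1, an adhesion receptor for leukocytes, Esr1, the estrogen receptor, and Itga4, an integrin chain of leukocytes. The ratios of these starts were 0.640 in B2m, 0.591 in Icam1, 0.445 in Esr1 and 0.467 in Itga4. The class of Esr1 and Itga4 thus rests on the threshold of 0.4, and the start of Esr1 had no CpG-rich window within 1 kb.

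CpG-poor windows lay farther from the start than CpG-rich ones. Their centres were within 100 bp of the nearest start in 300 of 1842 (16.3%, 14.6 to 18.1%), against 4358 of 9910 CpG-rich windows (44.0%, 43.0 to 45.0%). The difference was −27.7 percentage points (−29.6 to −25.7) and had the same direction on 20 of 20 chromosomes. The median distance was 439 bp for CpG-poor and 120 bp for CpG-rich windows. Windows at CpG-poor starts were closer, with a median of 270 bp and 24.4% of 1150 (22.0 to 27.0%) within 100 bp, which still was below the share of CpG-rich windows. Windows beside CpG-rich starts had a median of 642 bp and 19 of 692 (2.75%) within 100 bp. For them the rule set part of this distance, since a window centred on a CpG-rich start shares its bases with that start and would score as CpG-rich.

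More CpG-poor windows lay downstream of the start (987, 53.6%) than upstream (851, 46.2%). CpG-rich windows had the reverse order, with 44.3% downstream. The difference in the downstream share was 9.28 points (6.80 to 11.8), in the same direction on 19 of 20 chromosomes. The centre fell in an intron in 48.7% of CpG-poor and 22.9% of CpG-rich windows, outside genes in 27.0% and 41.2%, in an exon outside the coding sequence in 15.2% and 28.2%, and in coding sequence in 9.12% and 7.77%.

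**Figure D2:**
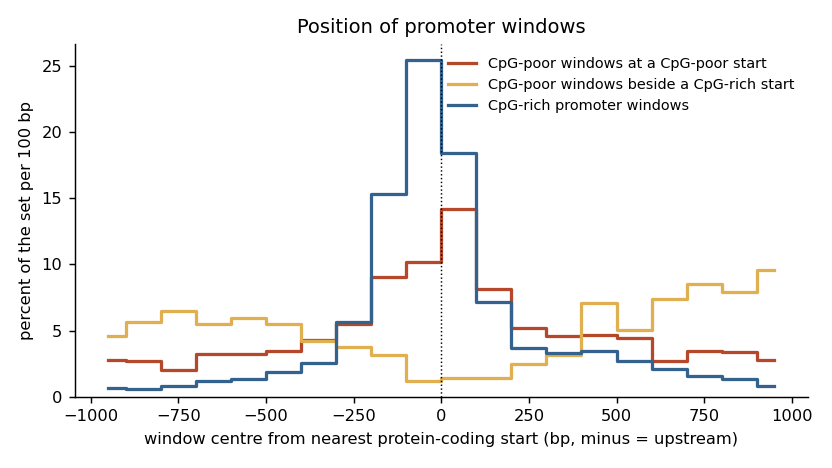
Percent of each set per 100 bp (y axis) by position of the window centre relative to the nearest protein-coding start (x axis, bp). CpG-rich windows peak just upstream of the start, CpG-poor windows at CpG-poor starts have a lower peak that spans it, and windows beside CpG-rich starts dip there.

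The windows were spread unevenly over the chromosomes, as was the whole list. The list kept 41.5 to 51.8% of the peaks numbered on chromosomes 7, 8, 9 and X, and 23.6 to 26.5% of those on the other 16 chromosomes, as far as peak names show. These 4 chromosomes held 34.2% of CpG-poor and 25.6% of CpG-rich promoter windows. Shares of genes are therefore also given for the other 16 chromosomes where they bear on a result, and the part of the uneven list in the remaining values was not tested.

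The windows marked 1668 of 22348 protein-coding genes (7.46%), and 936 of these genes (56.1%) had no CpG-rich promoter window. Most had 1 window (1473 genes), 9.77% had 2 and 20 genes had 3. Rgs3, a regulator of G-protein signaling, and Shisa5, a p53-induced membrane protein, had 6 windows each. Arap1, a regulator of small GTPases, and Capzb, a subunit of the actin-capping protein, had 5 each. The genes with 4 windows were Akt2, a kinase of insulin signaling, Plec, the cytoskeletal linker plectin, Glrx, a glutaredoxin, Dab2ip, a Ras GTPase-activating protein, Arhgap9 and Arhgdib, regulators of small GTPases in blood cells, Tlr9, a receptor for unmethylated CpG DNA, and Trex1, a DNA exonuclease. Genes with several starts had more places for a window, and Rgs3 has 10 starts in the annotation and Shisa5 15. Glrx and Tlr9 reached 4 windows around 1 start. The windows of Tlr9 were centred at −924, −488, −115 and 417 bp from it, minus meaning upstream, and neighbours less than 500 bp apart share bases.

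To ask how often a CpG-poor promoter was open, genes were counted by their starts. Of 11695 genes with a CpG-poor start, 995 had a CpG-poor window at it (8.51%), with 7.71% on the 16 evenly kept chromosomes and 10.8% on chromosomes 7, 8, 9 and X. Among genes with CpG-rich starts alone, 6304 of 10653 (59.2%, 58.2 to 60.1%) had a promoter window of any kind. That measure is wider, since 8.51% leaves out CpG-rich windows and windows at other starts of the gene. By the wider measure, 3146 of the 11695 genes with a CpG-poor start had a window at any of their starts. The value of 8.51% is the background against which each gene group below is set.

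Of the 19 gene lists, which were chosen with earlier results of these data known, genes used by leukocytes in general had the highest share. The part of the many CD45+ cells among the wells in the values of the lists was not tested. Of 60 pan-leukocyte genes with a CpG-poor start, 33 had a CpG-poor window there (55.0%, 41.6 to 67.9%), and 27 of 51 on the 16 evenly kept chromosomes (52.9%). Centred on or next to the start were the windows of Sash3, an adaptor of lymphocyte signaling (0 bp), Ptpn6 (0 bp), Plek, the platelet and leukocyte kinase substrate pleckstrin (−10 bp), Cd44, the hyaluronan receptor (−19 bp), and Coro1a, an actin-binding coronin (38 bp). Others were Gmfg (46 bp), Lsp1, an F-actin-binding protein of leukocytes (−55 bp), Arhgap9 (57 bp), Arhgdib (61 bp), Cd37, a tetraspanin (67 bp), Ptpn22, a phosphatase of T cell signaling (78 bp), Laptm5, a lysosomal protein of blood cells (−126 bp), and Was, the Wiskott-Aldrich actin regulator. The 27 genes of this list without a CpG-poor window at a CpG-poor start included Ptprc, which encodes CD45 itself, Itgb2 and Itgal, the chains of the integrin LFA-1, Lcp1, Lcp2, Cd53 and Btk. Such a gene is not thereby closed, since CpG-rich windows and windows more than 1 kb from a start are not counted. For the Cd45 locus the paper reports open chromatin specific to the pooled CD45+ cells of this tumor.

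Lists for separate leukocyte types were lower. T and NK cell genes stood at 19 of 83 (22.9%, 14.4 to 33.4%). They included Cd8a, which helps cytotoxic T cells to recognise MHC class I (−15 bp), Ifng, the cytokine interferon gamma (−37 bp), Cd5 (−87 bp), Lck, the kinase of the T cell receptor (95 bp), Gzmb, a granzyme, Il2ra and Il2rb (−159 bp), chains of the interleukin 2 receptor, and Cxcr3, a chemokine receptor (−232 bp). Cd3d, Cd3e, Cd3g, Cd4, Foxp3, Ctla4 and Gzma had none at a CpG-poor start.

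Interferon-induced genes stood at 14 of 51 (27.5%, 15.9 to 41.7%). Their windows included neighbouring genes of the guanylate-binding, Ifitm and Schlafen families, namely Gbp2 (52 bp), Gbp5 (67 bp), Gbp3 (−232 bp), Ifitm2 (−34 bp), Ifitm6 (−655 bp), Slfn2 (44 bp) and Slfn3 (697 bp), and those of the DNA sensor Aim2 (−31 bp), Ifi44 (−15 bp) and Ifit1 (580 bp). A further window centred −142 bp from the start of Ifit1 lay nearer to the start of a neighbouring gene. Isg15, Irf7, Rsad2, Mx1 and Ifit3 had none at a CpG-poor start.

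Macrophage and monocyte genes stood at 14 of 85 (16.5%, 9.31 to 26.1%). Lilrb4, an inhibitory receptor (58 bp), Tyrobp, the signaling adaptor DAP12 (−114 bp), Tlr4, the receptor for lipopolysaccharide, Sfpi1, which encodes PU.1, Irf8 and C1qc, a chain of complement C1q (−394 bp), were open, while Csf1r, Emr1 (F4/80), Itgam, Cd68 and Cx3cr1 had no such window. Dendritic and MHC class II genes stood at 4 of 28 (14.3%), with the chemokine Ccl22 (4 bp), Cd40 (−5 bp), the MHC class II activator Ciita and H2-Eb1 (−191 bp). B cell genes stood at 3 of 33 (9.09%) and granulocyte and mast cell genes at 3 of 41 (7.32%), both close to the background. The B cell genes were Tlr9, Pou2af1 and Fcer2a, and 0 of the 24 on the 16 evenly kept chromosomes had a window. Cd79a, Ms4a1 and Pax5 had none at a CpG-poor start. All immune lists together stood at 89 of 380 genes (23.4%, 19.3 to 28.0%). By the wider measure, a window of any kind at any start, they lay slightly above all genes with a CpG-poor start (3146 of 11695). Pan-leukocyte (38 of 60), T and NK cell (25 of 83) and interferon-induced genes (18 of 51) stood above that value. The other immune lists stood below it, as did epithelial genes (17 of 87). Intervals were not computed for this measure. The contrast of the immune lists together with 8.51% largely rests on counting CpG-poor windows only.

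Epithelial genes with a CpG-poor start stood at 9 of 87 (10.3%, 4.84 to 18.7%), an interval that includes the background. When every transcript of protein-coding genes was counted they stood at 18 of 99 (18.2%, 11.1 to 27.2%), against a background of 9.81% under the same count, so that the interval then lay above the background. The luminal genes were Cldn4 (17 bp), Ceacam1, an adhesion molecule (60 bp), Cldn8, a claudin (−156 bp), and Trps1, a GATA-type repressor of luminal cells (442 bp), 4 of 36. The basal and squamous genes were Sfn, an adaptor protein of keratinocytes, Lamb3, a laminin chain of basement membranes (−538 bp), Acta2, smooth muscle actin (734 bp), and Sprr1a, a protein of the cornified envelope (−761 bp), 4 of 35. Of 16 milk and lactation genes, Xdh, which takes part in the secretion of milk fat, had a window (−182 bp), and the casein genes Csn1s1, Csn2 and Csn3, Wap and Lalba did not. Krt5, Krt19, Muc1, Elf5, Ehf and Trp63 had no CpG-poor window at a CpG-poor start either.

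Genes of other tissues stood at 10.3% (18 genes, 6.25 to 15.9%). Among them fibroblast and matrix genes stood at 5 of 28 (17.9%, 6.06 to 36.9%), among them Col6a1, a collagen chain (19 bp), Dcn, the proteoglycan decorin (28 bp), Timp3, an inhibitor of metalloproteinases (−43 bp), and Mmp13, a collagenase. Liver genes stood at 3 of 29, muscle genes at 3 of 25, neuron genes at 2 of 9, platelet and erythroid genes at 2 of 16, endothelial genes at 1 of 19, adipocyte genes at 1 of 9, pancreas and gut genes at 1 of 22, and germ cell genes at 0 of 17 (0 to 19.5%). The values of these lists cannot be ranked against each other within their intervals.

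**Figure D3:**
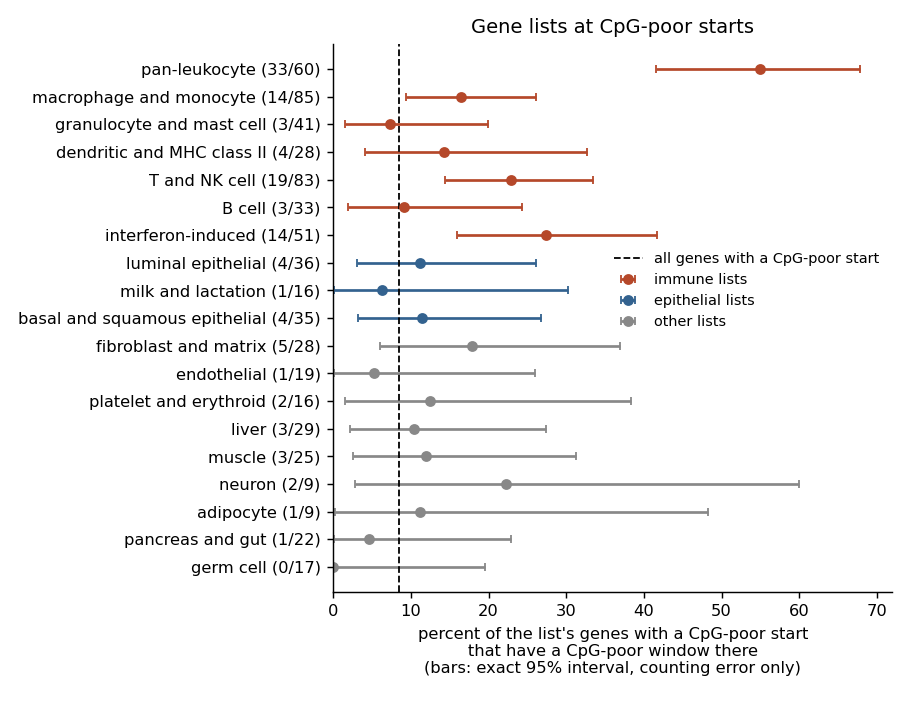
For 19 gene lists, the percent of genes with a CpG-poor start that had a CpG-poor window there (x axis), with exact intervals and the numbers of genes in parentheses; the dashed line marks 8.51%, the value over all genes. The pan-leukocyte list lies at 55.0%, and the epithelial lists span the line.

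A large part of the open CpG-poor starts belonged to genes with a second type of promoter. Of the 995 genes, 567 had CpG-poor starts alone and 428 had a CpG-rich start too. In 59.8% of the 428 a CpG-rich window was present as well. Between the open CpG-poor start and the nearest CpG-rich start of the same gene the median distance was 6507 bp, and it exceeded 1 kb in 76.9%. The CpG-rich start lay upstream in 73.6% and downstream in 26.4%. Runx1 and its relative Runx3 were of the downstream kind. The window of Runx1 covered its CpG-poor start, and the CpG-rich start with a window followed 128683 bp further downstream. The window of Runx3 was centred at −227 bp, and its CpG-rich start, also with a window, followed 31844 bp downstream. Irf8, a factor of myeloid cells, had its CpG-rich start 1351 bp downstream, and for Ikzf1, which encodes the lymphoid factor Ikaros, it lay at −3887 bp. The CpG-rich start had a CpG-rich window in both. In some genes the pair of starts lay close together on either side of the threshold, so that the class rests on it. The ratios were 0.378 and 0.408 in Cd40 (53 bp apart) and 0.381 and 0.404 in Vav1 (27 bp apart). They were far apart in Runx1 (0.293 and 0.959) and Runx3 (0.348 and 0.990). How many of the 428 genes had a CpG-rich start just above the threshold was not counted.

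The TATA box was searched as TATAAA or TATATA on the strand of the gene, from 40 to 15 bases upstream of the start. It occurred at 37 of 1419 CpG-poor starts with a window (2.61%, 1.84 to 3.58%). In a span of the same length 100 bases further upstream it occurred at 2 (0.141%). That span was a low stretch at these starts. Counted in bins of 10 bp, 0 words began in the bin from −130, 9 in the bin from −160 and 10 in the bin from −200. The bin from −30 held 27. Among CpG-poor starts without a window 667 of 16002 (4.17%) had it, so that open starts differed by −1.56 points (−2.34 to −0.55) and were higher on 6 of 20 chromosomes. Among CpG-rich starts with a CpG-rich window 0.901% of 16096 had it, a difference of 1.71 points (0.98 to 2.68), with open CpG-poor starts higher on 13 of 20 chromosomes. Several starts of a gene can share a TATA word. Starts with a window within 100 bp had it in 2.63% (9 starts) and the others in 28 of 1077 (2.60%), a difference of 0.03 points (−1.65 to 2.46). In the shifted span the closed CpG-poor starts stood at 1.37% and the CpG-rich ones at 0.230%, so that the sets also differed where no TATA box is placed, and the part of base composition in these shares was not tested.

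Listed genes with a TATA word are shown from 50 bases upstream to 10 bases downstream of the start, with the word in capitals. Ifng had a window (chr10:117877816-117878315) centred −37 bp from its start. The window of Fcer2a, the low-affinity IgE receptor, was centred −227 bp away. Those of Cela1, a pancreatic elastase, Acta2 and Sprr1a were at 572, 734 and −761 bp.
Ifng, chr10:117878053-117878113 (+ strand): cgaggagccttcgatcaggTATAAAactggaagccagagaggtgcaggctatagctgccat
Fcer2a, chr8:3694164-3694224 (- strand): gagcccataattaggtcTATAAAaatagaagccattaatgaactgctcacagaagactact
Cela1, chr15:100518341-100518401 (- strand): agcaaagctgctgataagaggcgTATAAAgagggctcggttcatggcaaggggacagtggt
Acta2, chr19:34329816-34329876 (- strand): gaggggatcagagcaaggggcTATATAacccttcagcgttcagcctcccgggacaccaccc
Sprr1a, chr3:92289806-92289866 (- strand): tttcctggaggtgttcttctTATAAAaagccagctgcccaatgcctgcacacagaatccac

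Short words of transcription factor families were searched on both strands. PU.1 and other Ets factors recognise GAGGAAGT and CAGGAAGT, RUNX factors TGTGGTTT, and AP-1 TGANTCA. The PU.1 and Ets words differ in their first letter and do not match at the same place. The Ets word CAGGAAGT occurred in 9.07% of the 1842 CpG-poor promoter windows, against 4.20% of CpG-rich promoter windows, 6.30% of the 32659 CpG-poor windows over 1 kb from any start, and 5.56% of 10760 CpG-poor starts without a window. The last set takes each gene once, at its CpG-poor start without a window that has the lowest coordinate. The Ets word was higher in CpG-poor promoter windows on 20, 16 and 18 of 20 chromosomes. The PU.1 word occurred in 6.73%, against 3.62%, 5.28% and 5.23%, and was higher on 17, 13 and 12 of 20 chromosomes. The AP-1 word occurred in 20.4%, against 7.75%, 21.7% and 14.7%, and the RUNX word in 4.61%, against 1.65%, 4.78% and 3.79%. Against CpG-poor windows far from starts, the differences were 2.76 points for Ets (1.51 to 4.19) and above 0 for PU.1 (0.36 to 2.71), while those for AP-1 (−3.20 to 0.59) and RUNX (−1.06 to 0.91) had intervals that include 0. Of 24 words searched, 10 had an interval above 0 in this comparison and 3 below. Against closed CpG-poor starts 10 were above 0 and 6 below. Ets and PU.1 were thus not alone, and CAGCTG of E-box factors was above 0 in both comparisons.

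Factors of CpG-rich promoters had the opposite pattern. The SP1 word GGGCGG was in 22.4% of CpG-poor and 77.9% of CpG-rich promoter windows, and the NRF1 word GCGCATGC in 0.814% and 6.32%. Both hold CpG, which the rule limits. SP1 still was above the 8.80% of CpG-poor windows far from starts and the 11.4% of closed CpG-poor starts. The KLF word CCACCC, which has no CpG, was in 49.3%, 52.8%, 37.3% and 34.6% of the same 4 sets. The sets differ in base composition, with median GC of 51.4, 62, 48 and 47.2%, and the part of this in the shares was not tested.

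Between the sets inside the CpG-poor windows the base composition was similar (median GC 51.6% at CpG-poor starts and 50.8% beside CpG-rich ones). Their positions were not, with a median distance to the start of 270 and 642 bp. Centres lay within 100 bp of the start in 24.4% and 2.75%. The part of position in the differences between these sets was not tested. The PU.1 word was in 98 of 1150 windows at CpG-poor starts (8.52%, 6.97 to 10.3%) and in 26 of 692 beside CpG-rich starts (3.76%, 2.47 to 5.46%). The difference was 4.76 points (2.52 to 6.88), in the same direction on 17 of 20 chromosomes. Of 24 words, 2 had an interval of this difference above 0, the other being CAGCTG of E-box factors (34.8% and 28.3%), and 1, SP1, was below. At CpG-poor starts, windows of immune-listed genes held the PU.1 word in 13.0% (16 windows) and the rest in 82 of 1027 (7.98%), a difference of 5.02 points whose interval (−0.15 to 12.3) includes 0.

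**Figure D4:**
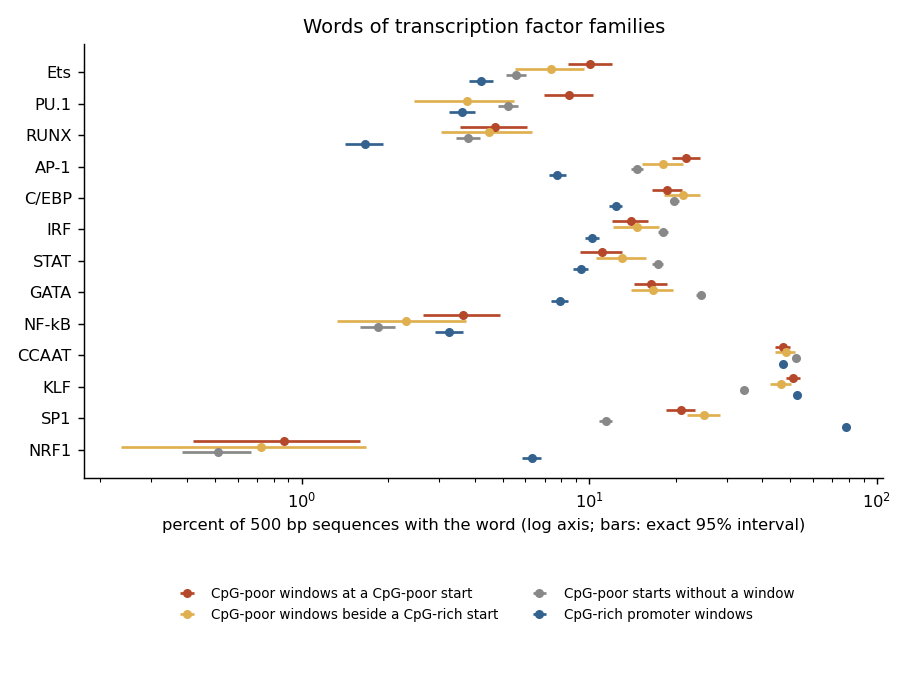
Percent of 500 bp sequences with a word of 13 factor families (x axis, log scale, exact intervals) in 4 sets of sequences. The PU.1 word stands at 8.52% in windows at CpG-poor starts and at 3.76% beside CpG-rich starts, and the SP1 word at 77.9% in CpG-rich promoter windows.

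The PU.1 word was counted by its position around the CpG-poor starts. It began within the span from 100 bases upstream to 49 bases downstream at 73 of 1419 starts with a window (5.14%) and at 380 of 16002 without (2.37%), a difference of 2.77 points (1.71 to 4.06), higher on 16 of 20 chromosomes. Counted once per gene, at the most upstream CpG-poor start, it was 45 of 995 (4.52%) and 2.39% of 10435, a difference of 2.14 points (0.97 to 3.64). In a span of the same length from −400 to −251 the shares per start were 1.76% and 1.09%, a smaller difference of 0.67 points whose interval still lies above 0 (0.08 to 1.51), although open starts were higher on only 8 of 20 chromosomes. Per gene they were 1.61% and 1.06%, with an interval of the difference that includes 0 (−0.11 to 1.55). The Ets word had 4.52% and 2.17% per gene near the start. The AP-1 word had 7.14% and 5.38% there, a difference of 1.76 points (0.25 to 3.58), and an interval that includes 0 in the farther span (−1.33 to 1.55). A higher share near open starts was therefore not particular to PU.1 and Ets. For the RUNX word near the start the interval was above 0 per start (0.02 to 1.51) and included 0 per gene (−0.13 to 1.67). These spans were chosen after the profile had been seen.

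**Figure D5:**
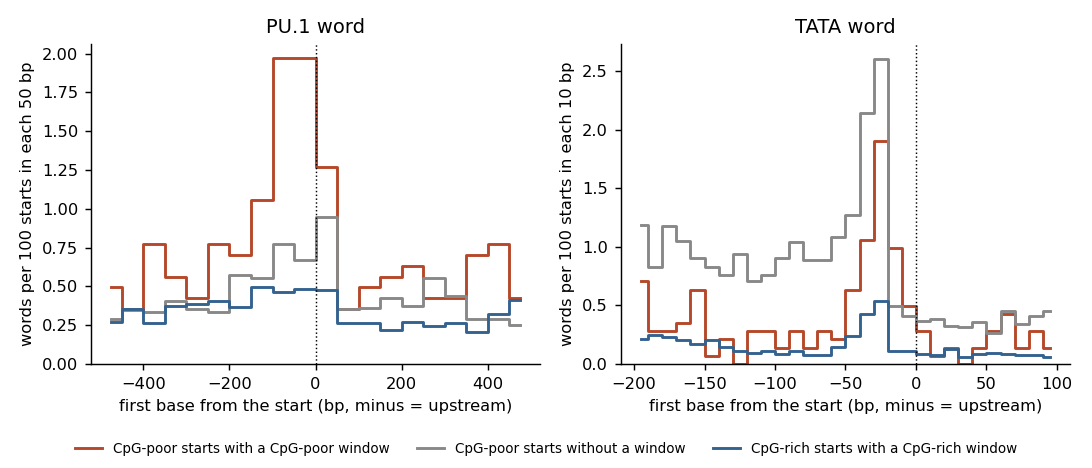
Words per 100 starts (y axis) by position of the first base of the word (x axis, bp from the start) for PU.1 in bins of 50 bp (left) and TATA in bins of 10 bp (right). The PU.1 word is most frequent from 100 bases upstream to 49 bases downstream at open CpG-poor starts. The TATA word peaks in the bins that begin at −40 and −30, where closed CpG-poor starts are highest. In the bin that begins at −20 open CpG-poor starts are higher than closed ones.

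Examples from the immune lists are shown as 30 bases with the PU.1 word, on either strand, in capitals. They were chosen because the word lay near the start, and are Lsp1, Cd5, Tyrobp, Tlr9, Samsn1, an adaptor of blood cells, and Inpp5d, the lipid phosphatase SHIP-1.
Lsp1, chr7:149646677-149646706 (+ strand): gctacaggaagGAGGAAGTgaaacctgggg
Cd5, chr19:10813499-10813528 (- strand): ggtttcacaggGAGGAAGTtgacagttcaa
Tyrobp, chr7:31198766-31198795 (+ strand): acccacctcacACTTCCTCcttcacttggt
Tlr9, chr9:106124928-106124957 (+ strand): gtgaaagtgtcACTTCCTCaattctctgag
Samsn1, chr16:75909523-75909552 (- strand): tcacatcagacACTTCCTCagtgctatcag
Inpp5d, chr1:89516856-89516885 (+ strand): gtttctataatGAGGAAGTtctgtgcagct

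In these genes the stretches began between position −64 (Cd5) and position 3 (Samsn1). Aim2 and Ptpn6 held the word at a greater distance, and Cd8a and Ifng did not hold it in their windows. Outside the immune lists, the neuron gene Gria1 held the word in a stretch that began at position −39. Windows of the muscle gene Tnni2 and of Trps1 held it as well, so the word was not particular to immune genes. A word is a match of letters and not a bound site.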

How the data were processed

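Pi-ATAC libraries of 4 plates with 96 wells of a PyMT mouse breast tumor form 1 group. As the labels and methods state, adapters were removed, alignment to mm9 used Bowtie2 2.1.0, and duplicates (Picard 1.79), mitochondrial and low-quality reads were dropped. The authors then pooled the cells and called summits with MACS2 at a q value limit of 0.05. A MACS2 version was not given in the sources used here. Summits were widened to 500 bp and 50000 windows were kept. The deposited values are positions (unit other), with no score, count or depth.

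Windows were read against the mm9 sequence and GENCODE vM1 with Python 3.11.15, numpy 2.4.6, scipy 1.17.1 and pandas 2.3.3. The scripts were tested on simulated data. Starts were scored over the 500 bp centred on them with the same threshold of 0.4. Of 825 listed genes, 804 matched on their symbol and 11 on an earlier name. Named genes were listed genes with a window, listed genes without as counterexamples, the genes with most windows, and those at the threshold. The members, gene lists and words were chosen with earlier results of these data known. Alternatives changed the distance, the threshold, the transcript set, overlapping windows and chromosomes. Some listed genes are not reported here.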

Additional observations from a re-analysis of the deposited data

How the results depend on the processing

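The 11 summary values were recomputed under 8 alternatives, and 64 of 88 values stayed within the counting interval of the main value or, for the number of genes, within 1.5 times it. The number of genes, 1668 of 22348, left its counting interval under 6 alternatives: 2 distances, and 1117 (threshold 0.3), 2385 (threshold 0.5), 2095 (every transcript) and 1112 of 17001 (without chromosomes 7, 8, 9 and X). Beyond the 64, 24 values moved as follows. With a promoter distance of 500 bp, CpG-poor windows were 10.7% of promoter windows and marked 960 genes, 77.5% had a CpG-poor start, 29.2% were centred within 100 bp, 6.28% of genes with a CpG-poor start were open and 8.66% of windows had the PU.1 word. With 2 kb these were 23.7%, 2842 genes, 51.7%, 9.19% and 12.2%, and the PU.1 share stayed within its interval. A CpG threshold of 0.3 gave 10.4% of promoter windows, 58.5% with a CpG-poor start, 6.50% of genes open and 22.6% with the AP-1 word, and 0.5 gave 22.4%, 59.9% and 10.6% for the former 3. With every transcript of protein-coding genes the shares were 19.1%, 69.0% and 9.81%. Keeping the first window of each overlapping group gave 16.4% of promoter windows. Without chromosomes 7, 8, 9 and X the values were 14.1% of promoter windows and 7.71% of genes open. The shares of listed immune and epithelial genes, TATA words and RUNX words stayed within their intervals under all 8, but with every transcript the epithelial share went from 10.3% to 18.2% (11.1 to 27.2%), above the 9.81% of all genes under that setting, and with a threshold of 0.3 it was 5.71% (1.58 to 14.0%). The distance changes the set itself; other causes were not tested. No paired analysis was possible because the list pools all wells. Depth is unknown, so a promoter without a window may be open below the threshold of the list.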

Other observations

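Large gene families whose starts are nearly all CpG-poor were rarely in the list. Olfactory receptor genes, which are used by sensory neurons of the nose, stood at 14 of 1094 (1.28%, 0.70 to 2.14%), with 8 of 715 on chromosomes other than 7, 8, 9 and X, and vomeronasal receptor genes at 3 of 330 (0.91%). Both lie below the 8.51% of all genes with a CpG-poor start. Keratin-associated proteins of hair stood at 0 of 45 and killer lectin receptors of NK cells at 0 of 26. Solute carriers stood at 11.0% (20 genes), zinc finger proteins at 9.19% (17 genes) and serpins at 5 of 58 (8.62%), near the value of all genes. Interleukin receptors stood at 6 of 31 (19.4%, 7.45 to 37.5%) and chemokines at 5 of 30 (16.7%, 5.64 to 34.7%), with intervals that include it.

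Some genes outside the lists also had a TATA word at an open CpG-poor start, and those named here were chosen after their values were seen. Cxcl3, a chemokine that attracts neutrophils, had a window centred −50 bp from such a start, Ccl4, a chemokine of macrophages and T cells, −253 bp, and Tsc22d3, the glucocorticoid-induced leucine zipper, 38 bp. The lens crystallin genes Crygb and Crybb1, whose products fill the lens of the eye, also had a TATA word and windows centred −161 bp and −250 bp from the start.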
